A study of Arabidopsis thaliana with 21 samples.

Results

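The genes described here are 43 core cell cycle genes of Arabidopsis thaliana, out of 27586 genes in the files. They were chosen by locus as the A-, B- and D-type cyclins, CDKA;1, the CDKB kinases, CDC20.1 and CDC20.2, KNOLLE, PCNA1, PCNA2 and the 7 KRP genes. They were divided into 21 mitotic genes, 4 S-phase genes, 11 genes of D-type cyclins and CDKA, and 7 inhibitors. Of the 43, 42 had enough counts to be tested, and CYCD7;1 (AT5G02110) had no count in any library.

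Cyclin-dependent kinases (CDKs) drive the cell cycle once a cyclin binds them. In plants, CDKA with D-type cyclins acts at the start of the cycle, A3-type cyclins are linked to DNA replication, and B-type and most other A-type cyclins act with CDKA and the plant-specific CDKB kinases from G2 into mitosis. KRP proteins bind and inhibit cyclin-CDK complexes, and the SIAMESE family forms a second group of plant CDK inhibitors. In the root tip most divisions take place in the meristem, and cells leaving it enlarge and differentiate, often with further rounds of DNA replication without division.

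RNA was sequenced from root tips of 5-day-old plants, all cell types together, with 50 tips a library. There were 7 groups of 3 libraries in 3 experiments. In the first, wild-type Col-0 was treated for 20 min with ethanol (mock), with the auxin IAA (indole-3-acetic acid) at 10 nM, or with 10 µM of PEO-IAA, an auxin antagonist that binds the auxin receptors. In the second, Col-0 and the line HS::AXR3-1 (HS:AXR3-1 in the labels) received a heat shock of 40 min at 37 °C followed by 80 min of recovery. In the third, Col-0 and the line XVE>>AXR3-1 were treated with 5 µM estradiol for 2 h. AXR3-1 is a stabilised form of the auxin response repressor AXR3 (IAA17). It was driven by a heat shock promoter in the HS line. In the XVE line it was driven by the estradiol-activated XVE factor under the g1090 promoter, and its fluorescent tag is given as RFP in the labels and as mCherry in the design text. Both lines are in the Col-0 background, and their controls received the same heat or estradiol.

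Libraries held 17.45 to 23.88 M estimated reads. Levels are given in CPM, counts relative to the scaled library size, and in TPM, which also corrects for transcript length, where genes are compared with each other. The AXR3 locus, whose reads may come from the native gene or the transgene, stood at 734, 939 and 1185 CPM in the 3 XVE>>AXR3-1 libraries and between 146 and 175 CPM in their controls. In the HS::AXR3-1 libraries it stood at 181, 298 and 861 CPM, and between 93.5 and 149 CPM in heated Col-0. The heated libraries also differed in 8 heat response genes. Their summed level was 6510, 6918 and 7923 CPM in heated Col-0, and 158, 5024 and 12410 CPM in HS::AXR3-1, against 10.8 to 33.7 CPM in all unheated libraries. The library labelled HS::AXR3-1 replicate 1 thus had a weak heat response, and replicate 3 had the highest. Whether replicate 1 was heated as its label says cannot be told from these values, and it is counted as heated throughout. The mitotic median, the count of called members and the values of CYCD3;1, CYCD5;1, SIM and SMR1 in the HS::AXR3-1 line are therefore also given without single libraries.

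Sequences before the start of mitotic genes are shown first, because several B-type cyclins and KNOLLE varied widely among the heated libraries, while the kinase gene CDKB1;1 stayed near its unheated levels. The genes shown were chosen after their values were seen, and CYCB1;4 is among them as a gene that varied widely and has no copy of the motif. Each line holds the 250 bases before the annotated start, 5′ to 3′ on the strand of the gene, from the RefSeq genome TAIR10.1. Capitals mark AACGG on either strand (CCGTT on the other), the core of the mitosis-specific activator element that MYB3R factors are known to bind in plants. The windows lie at chr4:17624309-17624558 (minus strand) for CYCB1;1, chr5:1861704-1861953 (minus) for CYCB1;2, chr3:3627274-3627523 (minus) for CYCB1;3, chr2:11400868-11401117 (plus) for CYCB1;4, chr1:7137829-7138078 (minus) for CYCB2;3, chr1:2711001-2711250 (minus) for KNOLLE and chr3:20059421-20059670 (plus) for CDKB1;1.
CYCB1;1: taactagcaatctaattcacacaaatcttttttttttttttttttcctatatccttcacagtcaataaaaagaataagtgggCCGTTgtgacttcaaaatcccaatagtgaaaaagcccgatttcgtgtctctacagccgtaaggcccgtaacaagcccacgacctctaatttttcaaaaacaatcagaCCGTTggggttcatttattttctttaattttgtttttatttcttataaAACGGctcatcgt
CYCB1;2: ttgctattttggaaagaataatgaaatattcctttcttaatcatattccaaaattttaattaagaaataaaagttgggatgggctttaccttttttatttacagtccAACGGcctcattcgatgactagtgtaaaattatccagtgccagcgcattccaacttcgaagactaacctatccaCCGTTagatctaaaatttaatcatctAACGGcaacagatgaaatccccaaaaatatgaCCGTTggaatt
CYCB1;3: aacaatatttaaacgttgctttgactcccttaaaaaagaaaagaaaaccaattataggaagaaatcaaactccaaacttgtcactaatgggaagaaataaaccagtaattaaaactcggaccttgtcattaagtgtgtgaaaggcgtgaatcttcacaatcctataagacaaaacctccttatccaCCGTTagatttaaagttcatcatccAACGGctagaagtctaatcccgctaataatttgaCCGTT
CYCB1;4: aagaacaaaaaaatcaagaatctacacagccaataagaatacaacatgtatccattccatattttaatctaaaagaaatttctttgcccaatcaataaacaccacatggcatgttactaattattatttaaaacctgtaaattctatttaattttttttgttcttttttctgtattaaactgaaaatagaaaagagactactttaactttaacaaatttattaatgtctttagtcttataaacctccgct
CYCB2;3: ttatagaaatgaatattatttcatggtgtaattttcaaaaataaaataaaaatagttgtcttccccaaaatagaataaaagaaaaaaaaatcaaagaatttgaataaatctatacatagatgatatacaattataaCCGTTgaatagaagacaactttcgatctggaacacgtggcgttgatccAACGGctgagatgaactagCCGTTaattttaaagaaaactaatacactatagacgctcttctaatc
KNOLLE: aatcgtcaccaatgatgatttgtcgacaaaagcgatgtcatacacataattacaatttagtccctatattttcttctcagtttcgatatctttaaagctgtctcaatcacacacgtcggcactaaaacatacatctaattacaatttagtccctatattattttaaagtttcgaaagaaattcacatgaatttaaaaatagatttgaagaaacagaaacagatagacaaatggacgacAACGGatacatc
CDKB1;1: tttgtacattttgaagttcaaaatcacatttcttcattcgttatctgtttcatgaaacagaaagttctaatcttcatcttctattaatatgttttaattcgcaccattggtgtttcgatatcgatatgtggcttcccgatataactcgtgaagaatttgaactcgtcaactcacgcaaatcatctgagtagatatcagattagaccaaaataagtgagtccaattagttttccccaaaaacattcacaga

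CYCB1;2 holds 4 copies in its window, CYCB1;1, CYCB1;3 and CYCB2;3 hold 3 each, KNOLLE holds 1, and CYCB1;4 and CDKB1;1 hold none. Of the 21 mitotic genes, 10 (47.6%) hold at least 1 copy and 8 (38.1%) hold 2 or more. Over the windows of all 27387 protein-coding genes with one, the shares are 20.6% and 3.63%. Among the other roles, 1 of 4 S-phase genes, 1 of 11 D-type and CDKA genes and 4 of 7 KRP genes hold a copy, with 6 copies before KRP1 (AT2G23430). The E2F-type site (TTT, then a pair of bases that are each C or G, then CGC, on either strand) is in 1.41% of all windows and before 1 of the 43 genes, CYCD3;3. A match is a run of letters and not a measured site.

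Over the 21 libraries, the mitotic genes with the highest length-corrected levels were CDC20.1 (AT4G33270), an activator of the anaphase-promoting complex, at 37.2 ± 7.96 TPM (SD, n = 21) and KNOLLE (AT1G08560), a syntaxin of the cell plate, at 36 ± 10.2 TPM. CDKB1;1 followed at 34.6 ± 5 TPM. These 3 differed by less than their spread, and their lowest libraries stood at 17.7 (CDC20.1), 13.5 (KNOLLE) and 24.7 TPM (CDKB1;1). CYCA2;1 was lowest of the mitotic genes at 2.47 ± 0.722 TPM. Among S-phase genes PCNA2 (AT2G29570), a sliding clamp of DNA polymerase, stood at 61.1 ± 6.96 TPM and CYCA3;2 (AT1G47210) at 47.2 ± 9.24 TPM. CDKA;1 (AT3G48750), the main CDK of the plant cycle, stood at 55.3 ± 3.6 TPM and CYCD3;2 (AT5G67260) at 47.5 ± 4.92 TPM. The KRP genes were lower, with KRP2 (AT3G50630) at 18.3 ± 3.26 TPM, KRP4 (AT2G32710) at 16.3 ± 3.14, KRP5 (AT3G24810) at 15.8 ± 3.67, KRP6 (AT3G19150) at 12.7 ± 2.39, KRP3 (AT5G48820) at 7.76 ± 1.32, KRP7 (AT1G49620) at 6.13 ± 0.956 and KRP1 at 3.67 ± 1.54 TPM. KRP2, KRP4 and KRP5 differed from each other by less than their spread over libraries.

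The study's comparisons ask whether auxin, its antagonist or a stabilised repressor alters transcript levels within minutes to hours. A gene was called changed at an edgeR adjusted p under 0.05 over all 19809 genes tested. None of the 42 cell cycle genes was called after IAA against mock, where 0.167% of all genes were called, after PEO-IAA against mock (0.0353%) or between IAA and PEO-IAA (0.631%). DESeq2 and the fit with the replicate number as a block also called none. At an unadjusted p under 0.05 there were 0 of 42 for each chemical against mock, beside 3.39% of all genes for IAA and 1.54% for PEO-IAA, and 1 for IAA against PEO-IAA, beside 4.49%. No member was called in XVE>>AXR3-1 against estradiol-treated Col-0, where 2.81% of all genes were called, with 4 members at an unadjusted p under 0.05, beside 10.3% of all genes. With the replicate number as a block, 2 of the 42 members were called higher there, KRP5 and CYCD5;1, beside 4.18% of all genes. None was called in HS::AXR3-1 against heated Col-0 (0.0252% of all genes) or in the difference between the effects of the lines (0.0252%), with 0 members at an unadjusted p under 0.05 in either, beside 4.23% and 3.58% of all genes. DESeq2 called none in these 3 comparisons as well. Heat itself has no matched unheated control, so heated Col-0 was set against mock and against estradiol-treated Col-0, where treatment and experiment cannot be told apart. Against mock, 4 members were called lower and none higher, where 4.25% of all genes were called lower.

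**Figure D1:**
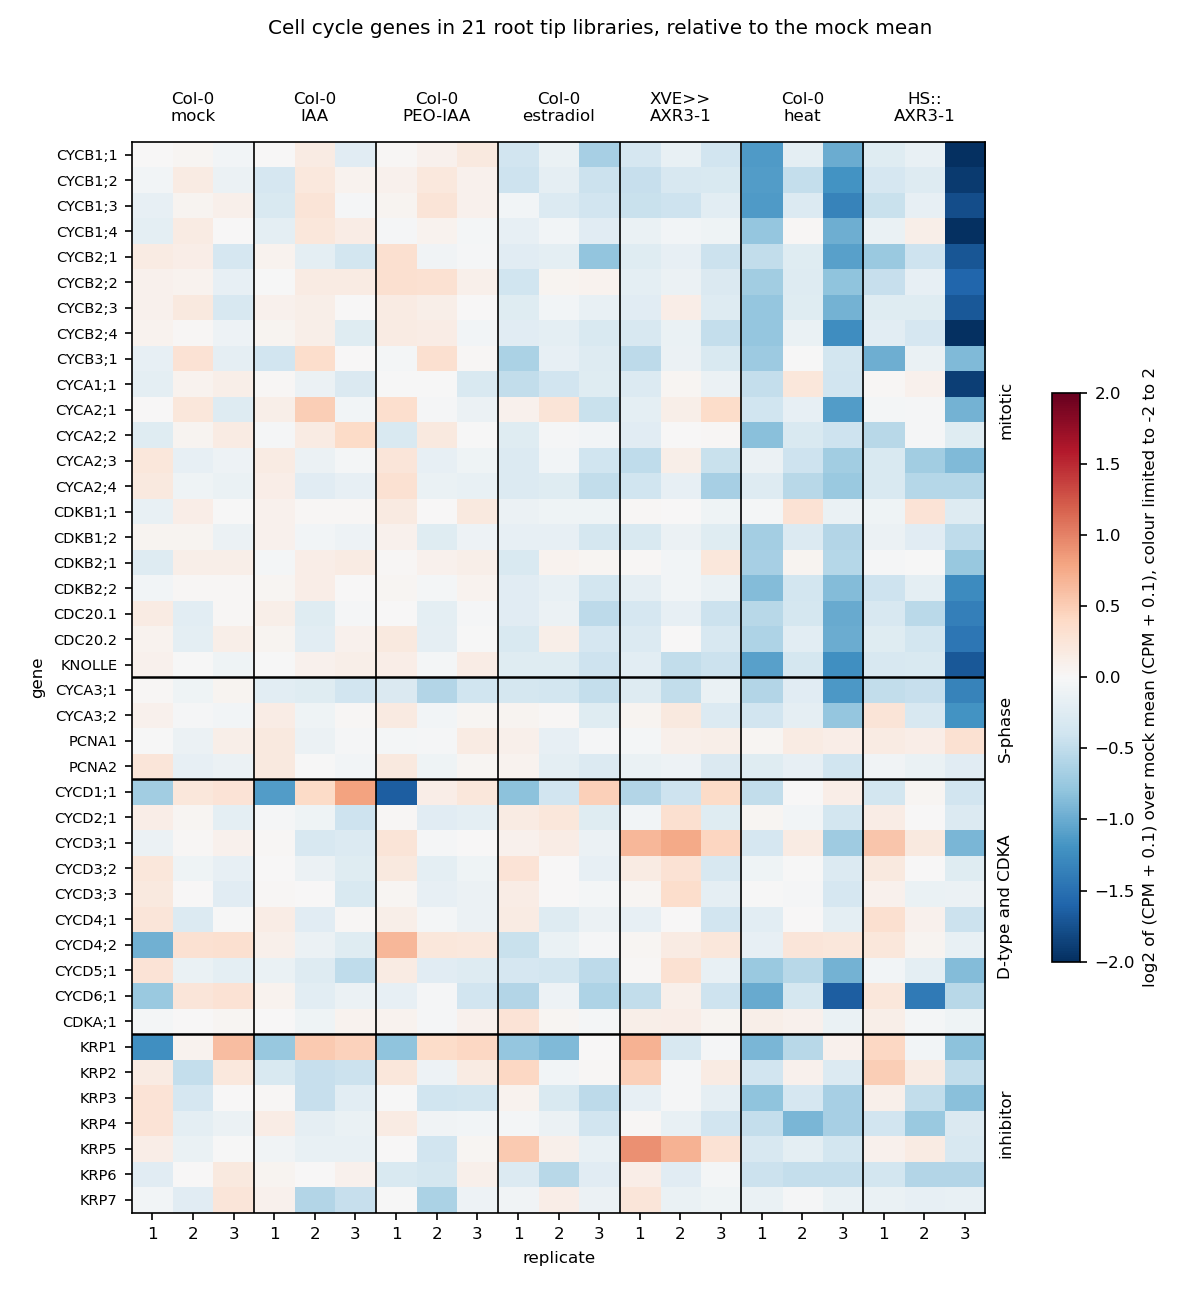
Log2 of the level in each of the 21 libraries (columns, replicates 1 to 3 of each group) over the mock mean for the 42 detected cell cycle genes (rows, by role), in CPM with 0.1 added and colours limited to -2 to 2. Blue cells gather in the mitotic rows of heated Col-0 replicates 1 and 3 and HS::AXR3-1 replicate 3, whose median mitotic ratios were -0.69, -0.95 and -1.45.

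None of the 21 mitotic genes was called after the chemicals or in either AXR3-1 line against its control. The lowest mitotic levels lay in heated libraries. Summed over the 21 genes, the level was 603, 596 and 577 CPM in the 3 mock libraries, 595, 599 and 596 CPM after IAA, and 640, 592 and 602 CPM after PEO-IAA. The groups overlap. The median log2 change of the mitotic genes was 0.01 for IAA against mock and 0.08 for PEO-IAA against mock, beside -0.00 and 0.00 over all genes tested. Estradiol-treated Col-0 had 493, 552 and 472 CPM and XVE>>AXR3-1 had 491, 546 and 488 CPM, again with overlap and with a median log2 change of 0.03 (-0.01 over all genes). Single mitotic genes ranged from -0.13 to 0.26 in that comparison.

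All 21 mitotic genes lay below mock on average in estradiol-treated Col-0, with a median log2 difference of -0.24 and none called, where 1% of all genes were called. At an unadjusted p under 0.05 there were 0 mitotic genes, and DESeq2 called 0. Both groups come from different experiments, and 8 of the 21 mitotic genes had all 3 estradiol libraries below all 3 mock libraries, beside 7.2% of all genes. The summed mitotic level was 591.9 ± 13.8 CPM in mock and 505.5 ± 41.5 CPM in estradiol-treated Col-0 (SD, n = 3 each). Heated and estradiol-treated Col-0 are each set against the same mock libraries, so those differences share controls.

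In heated libraries the summed mitotic level was 376, 506 and 324 CPM in Col-0, and 488, 495 and 244 CPM in HS::AXR3-1. Col-0 replicate 2 and HS::AXR3-1 replicates 1 and 2 lay within the range of the unheated estradiol experiment, and the remaining 3 lay below all 15 unheated libraries. Each of the 21 mitotic genes had its lowest level of all 21 libraries in a heated library, 16 of them in HS::AXR3-1 replicate 3. In that library 19 of the 21 lay below all 15 unheated libraries, in Col-0 replicate 3 it was 18, and in Col-0 replicate 1 it was 15. The remaining heated libraries had 1 (Col-0 replicate 2), 4 (HS::AXR3-1 replicate 1) and 3 (HS::AXR3-1 replicate 2). Over all genes tested, the share below all unheated libraries was between 9.4% and 15.6% in each heated library. In root tips as a whole, fewer cells of a type and less RNA per cell cannot be told apart.

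**Figure D2:**
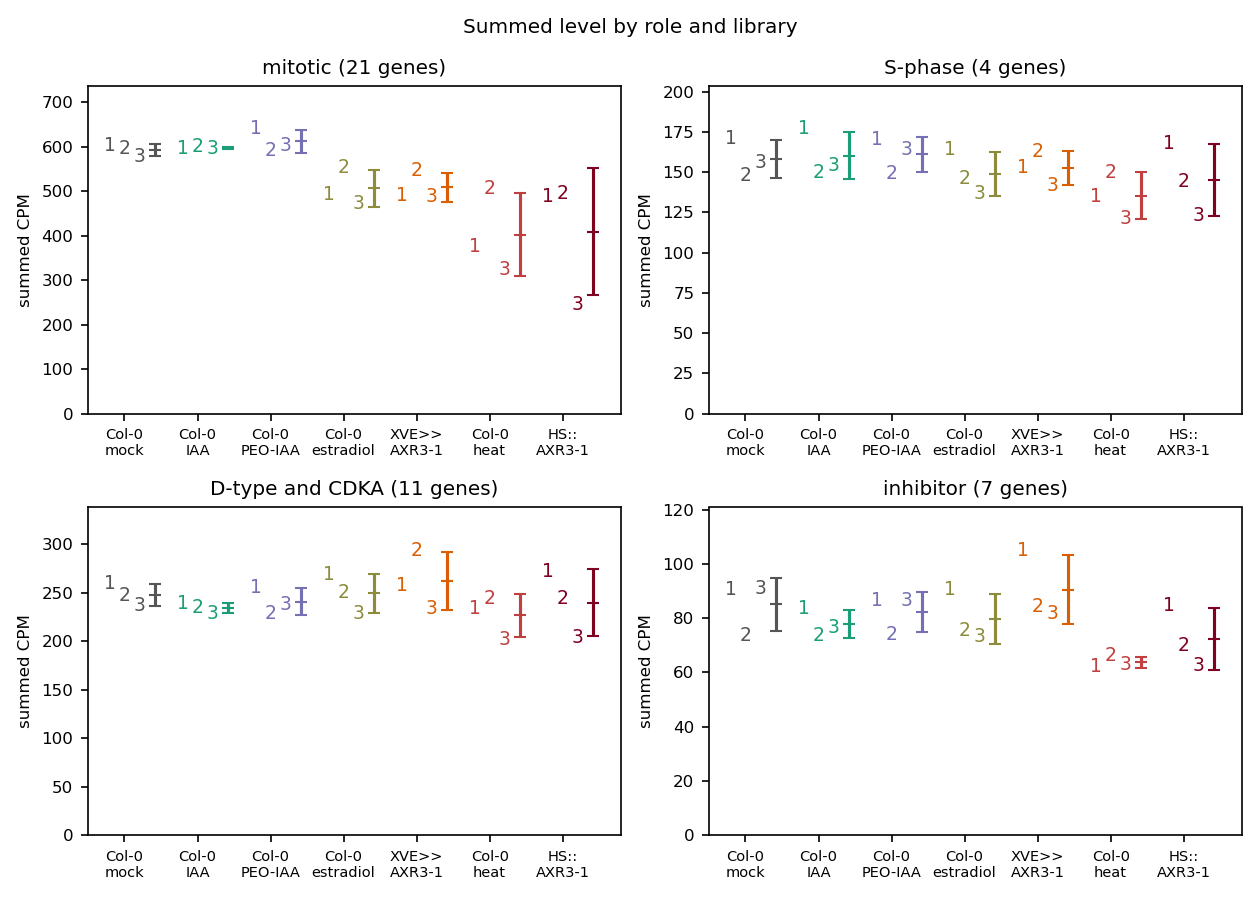
Summed CPM of each role (panels, linear axes from 0) in each library, with digits marking replicates 1 to 3 and bars giving mean ± SD of 3 libraries. Mitotic sums range from 244 to 506 CPM in the heated groups and from 472 to 640 CPM in the unheated ones, while D-type sums overlap across groups.

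Several B-type cyclins, which drive entry into mitosis, spread widely among the heated libraries, and others did not. CYCB1;1 (AT4G37490) had 18.6, 19.1 and 17.8 CPM in mock, 14.2, 16.7 and 11.6 CPM in estradiol-treated Col-0, 8.36, 16.2 and 9.29 CPM in heated Col-0, and 15.7, 16.7 and 3.86 CPM in HS::AXR3-1. Its highest heated library was 4.32 times its lowest, while over the 15 unheated libraries that ratio was 1.81. CYCB1;2 (AT5G06150) had 39.7, 46 and 37.7 CPM in mock, 18.8, 29.7 and 17.8 CPM in heated Col-0 and 32.4, 34.2 and 10.8 CPM in HS::AXR3-1. All heated Col-0 libraries were below all mock libraries for CYCB1;2, and HS::AXR3-1 replicate 3 was lowest. CYCB1;4 (AT2G26760) ranged most among heated libraries, with a ratio of 4.75 between highest and lowest, against 1.38 among unheated ones. It had 12.8, 22.2 and 11.1 CPM in heated Col-0 and 20, 23.6 and 4.98 CPM in HS::AXR3-1. The lowest value in the ratios of CYCB1;1 and CYCB1;4 is the single library HS::AXR3-1 replicate 3. For CYCB2;1 that ratio was 2.82 among heated and 2.18 among unheated libraries, and for CYCB3;1 it was 1.95 and 1.98. CYCA1;1 (AT1G44110), a mitotic A-type cyclin, was low in a single library, with 10.1, 16.3 and 10.7 CPM in heated Col-0 and 14.3, 14.9 and 3.72 CPM in HS::AXR3-1 beside 9.86 to 15 CPM in all unheated libraries.

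The 8 mitotic genes with 2 or more AACGG copies had a median log2 ratio to the mock mean of -1.74 in HS::AXR3-1 replicate 3, with a range of -2.23 to -0.95. The 11 without a copy had a median of -0.88 and a range of -2.23 to -0.25 in that library. In heated Col-0 replicate 1 the medians were -0.73 and -0.66, in replicate 2 -0.25 and -0.21, and in replicate 3 -1.04 and -0.70. In HS::AXR3-1 replicate 1 they were -0.30 and -0.25, and in replicate 2 -0.17 and -0.23, where the genes with 2 or more copies were the less low. The ranges of these 2 sets overlap in every one of these libraries. CYCB1;4 and CYCB2;4 (AT1G76310), which hold no copy, were among the lowest genes. The 2 genes with 1 copy, CDKB2;2 and KNOLLE, had medians of -0.97, -0.35 and -1.04 in heated Col-0 replicates 1 to 3. In HS::AXR3-1 replicates 1 to 3 their medians were -0.37, -0.26 and -1.48, so the levels did not follow the number of copies throughout. These medians are a description of single libraries.

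Among mitotic kinases, CDKB2;2 (AT1G20930) had 23, 24.7 and 24.5 CPM in mock and 13.3, 18.8 and 13.2 CPM in heated Col-0, without overlap. Its log2 change was -0.67 ± 0.19 (SE; edgeR adjusted p = 0.0387). CDKB1;2 (AT2G38620) had 16.2 to 18.3 CPM in the 3 mock libraries and 10.9, 14.5 and 11.7 CPM in heated Col-0. It fell by 0.51 on the log2 scale (SE 0.13, edgeR adjusted p = 0.0278). These were the only mitotic genes called by edgeR. The paralogs of both were not called. CDKB1;1 (AT3G54180) had 25.5, 31.1 and 28.1 CPM in mock, 27.4, 34.6 and 25.7 CPM in heated Col-0 and 26.5, 34.1 and 23.6 CPM in HS::AXR3-1. Its groups overlapped. CDKB2;1 (AT1G76540) had 30, 38.8 and 39 CPM in mock and 22.7, 37.6 and 24.2 CPM in heated Col-0. Each of the 4 CDKB genes overlaps a gene on the opposite strand, and because the strand setting is not given, reads of such pairs cannot be told apart. Those genes averaged 53.5 CPM beside CDKB1;1 and 14.6 CPM beside CDKB1;2, but 0.0685 CPM beside CDKB2;1 and 0.0573 CPM beside CDKB2;2, so the uncertainty concerns both CDKB1 genes.

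KNOLLE had 58.3, 55 and 52.4 CPM in mock, 46.6, 46.5 and 41.4 CPM in estradiol-treated Col-0, 26.1, 43.3 and 23.6 CPM in heated Col-0 and 44.1, 44.5 and 17.1 CPM in HS::AXR3-1. All heated Col-0 libraries lay below all mock libraries. Its log2 change against mock was -0.83 ± 0.26 with an edgeR adjusted p of 0.0613 and a DESeq2 adjusted p of 0.023. CDC20.1 had 96, 74.1 and 87.2 CPM in mock, 58.4, 67 and 42.6 CPM in heated Col-0 and 68.7, 59 and 33.1 CPM in HS::AXR3-1. CDC20.1 and CDC20.2 are close paralogs whose reads the counting could divide, and their sum was 145.8 ± 17 CPM in mock, 96.3 ± 23.1 CPM in heated Col-0 and 93.2 ± 33.8 CPM in HS::AXR3-1 (SD, n = 3 each).

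Over the role, 20 of 21 mitotic genes lay below mock in heated Col-0, with a median log2 change of -0.57 against -0.00 over all genes. In 12 of them all heated Col-0 libraries were below all mock libraries, beside 13.8% of all genes. DESeq2 called 5 mitotic genes lower, adding KNOLLE, CYCA2;4 and CYCB1;2 to both kinases, where it called 5.54% of all genes lower. Against estradiol-treated Col-0 the median was -0.36, 18 of 21 lay below, and none was called, where 0.687% of all genes were called lower. At an unadjusted p under 0.05 there was 1, CDKB2;2, and DESeq2 called none. Only 2 of 21 had no overlap in that direction, beside 11.6% of all genes. The single libraries decide these counts. Without heated Col-0 replicate 2, 7 of the 42 members were called lower than mock and the mitotic median was -0.76. Without heated Col-0 replicate 3 none was called and the median was -0.44, and without replicate 1 there was 1 call and a median of -0.56. Leaving out mock replicate 1 also ended all calls, and leaving out mock replicate 2 left 1. Over all genes, 558, 633 and 507 were called lower without heated Col-0 replicates 2, 3 and 1, beside 842 with all libraries. Without mock replicates 1 and 2 it was 605 and 481.

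**Figure D3:**
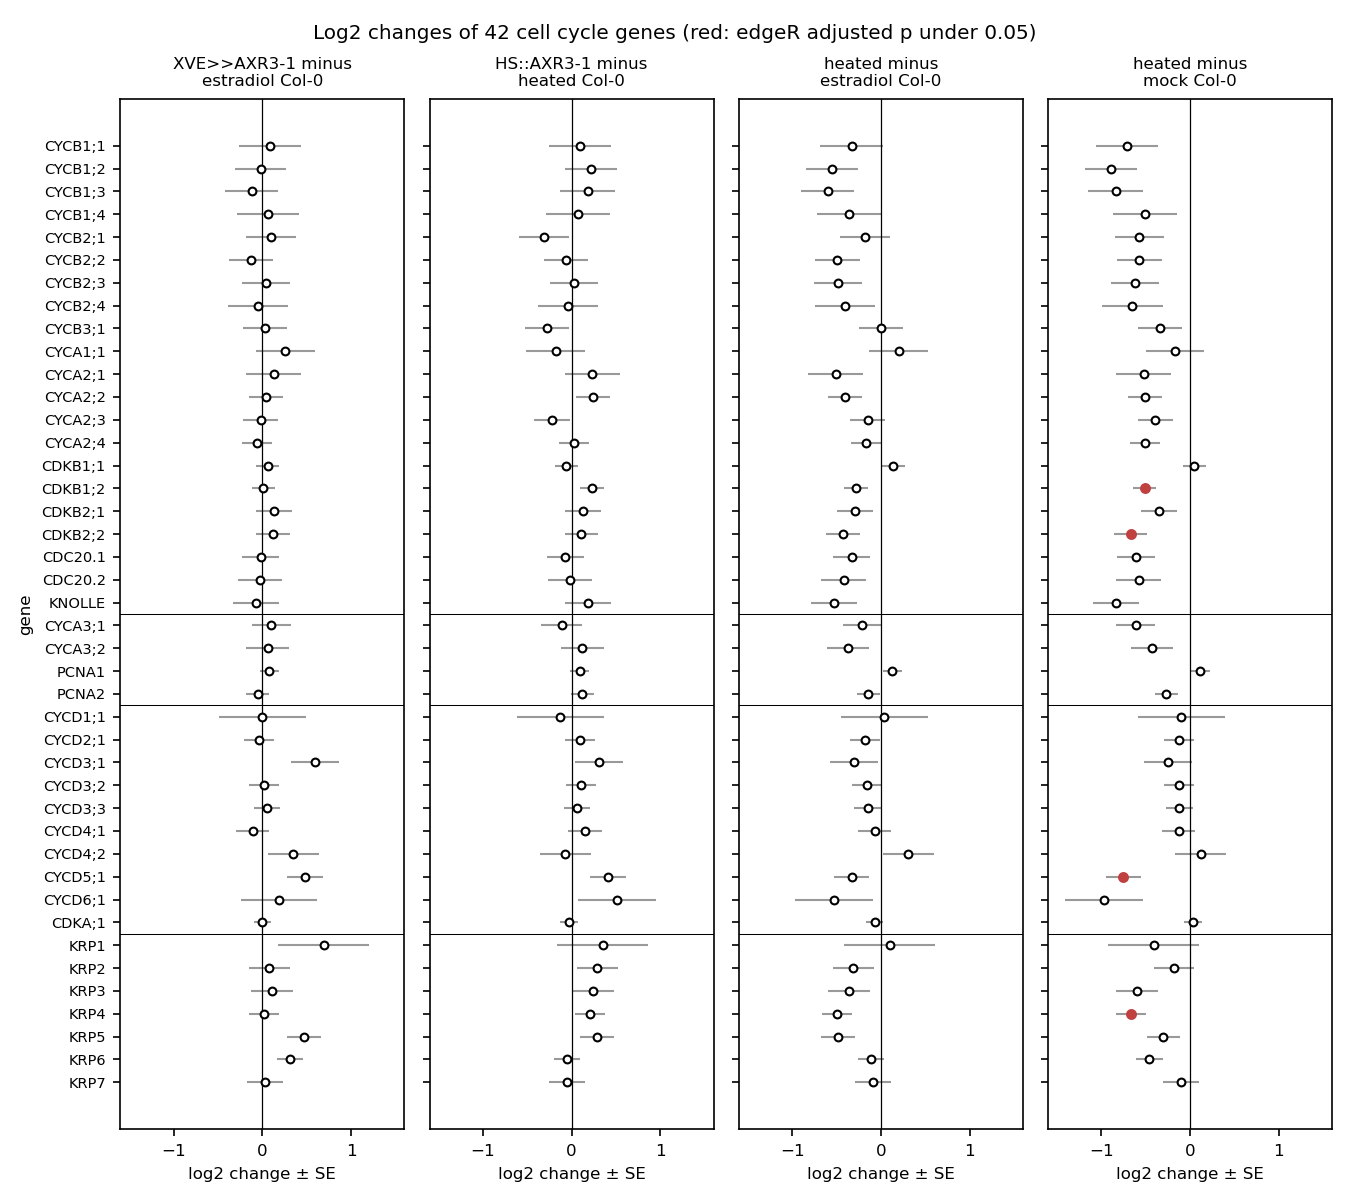
Log2 change ± SE of the 42 tested genes (rows, by role) in 4 comparisons (panels), with red points for an edgeR adjusted p under 0.05. CDKB1;2, CDKB2;2, CYCD5;1 and KRP4 are red in heated against mock Col-0, and no gene is red in the other 3 panels.

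In HS::AXR3-1 against heated Col-0, the mitotic genes had a median log2 change of 0.03 with single genes between -0.31 and 0.24. The median was -0.11 without HS::AXR3-1 replicate 1, -0.16 without replicate 2 and 0.33 without replicate 3. None of the 42 members was called in any of these fits. Ordered by the heat response sum, HS::AXR3-1 replicate 3 (12410 CPM) had a mitotic sum of 244 CPM and heated Col-0 replicate 3 (7923 CPM) had 324 CPM. Heated Col-0 replicates 2 and 1 followed, with 506 and 376 CPM, and then HS::AXR3-1 replicates 2 and 1, with 495 and 488 CPM. HS::AXR3-1 replicate 3 also had the highest AXR3 level of its line (861 CPM), so heat response and AXR3 level cannot be told apart there. The part of either in the mitotic levels was not tested. Markers of the stem cell niche and meristem (7 genes) summed to between 173 and 236 CPM in heated libraries and between 160 and 228 CPM in unheated ones. The sums of 4 root cap markers were 40.1 to 69.3 CPM and 38.9 to 57.4 CPM, and those of 5 endodermis markers 299 to 442 CPM and 255 to 459 CPM. The sums of 6 root hair markers were 336, 358 and 500 CPM in heated Col-0 and 326, 213 and 159 CPM in HS::AXR3-1. For these markers unheated Col-0 libraries had 292 to 474 CPM, and XVE>>AXR3-1 had 67.7, 135 and 238 CPM. HS::AXR3-1 replicates 2 and 3 thus lay below all unheated Col-0 libraries. The root cap gene BRN1 was higher in heated than in estradiol-treated Col-0 (log2 change 0.76, edgeR adjusted p = 0.046). The part of these cell types in the mitotic levels was not tested.

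**Figure D4:**
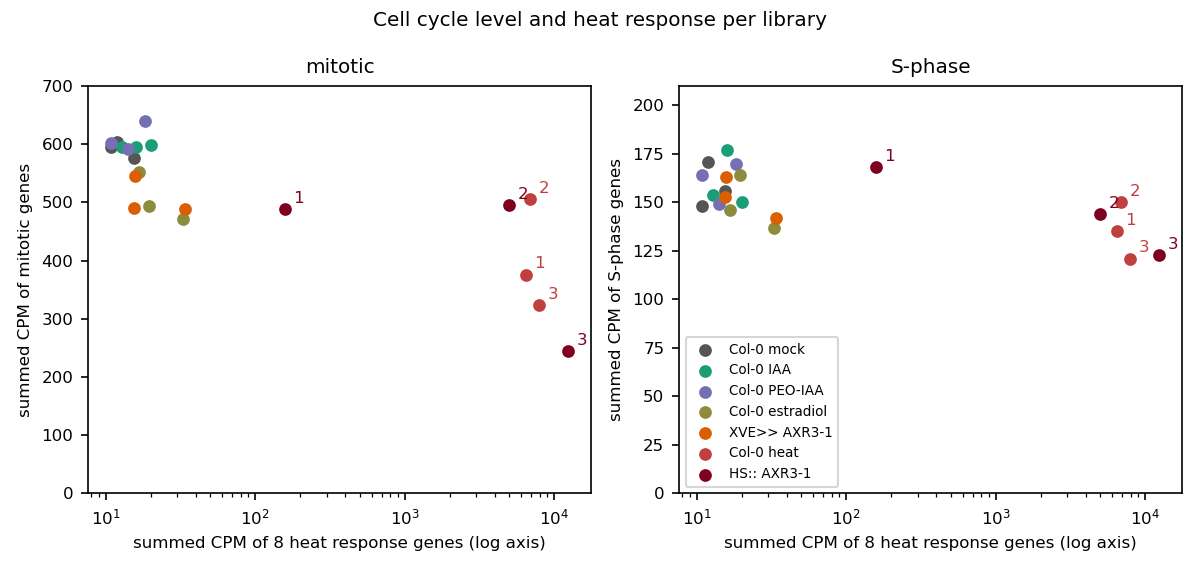
Summed CPM of 8 heat response genes (log axis) against the summed CPM of mitotic (left) and S-phase genes (right) in 21 libraries, with digits marking replicates of the heated groups. HS::AXR3-1 replicate 1 lies at 158 CPM of heat response, far left of the other heated libraries, and replicate 3 combines the highest heat response (12410 CPM) with the lowest mitotic sum (244 CPM).

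The S-phase genes divided into 2 PCNA genes, whose highest heated library was 1.2 (PCNA1) and 1.26 times (PCNA2) the lowest, and 2 A3-type cyclins, with ratios of 2.77 (CYCA3;2) and 2.2 (CYCA3;1). The sum of the 4 was 171, 148 and 156 CPM in mock, 135, 150 and 121 CPM in heated Col-0, and 168, 144 and 123 CPM in HS::AXR3-1. None was called in any comparison. The ratio of the mitotic sum to the S-phase sum was 1.98 in HS::AXR3-1 replicate 3 and 2.79, 3.38 and 2.67 in heated Col-0, while unheated libraries lay between 3.00 and 4.03. It was 2.90 and 3.44 in HS::AXR3-1 replicates 1 and 2, so 2 of the 6 heated libraries lay within the unheated range. PCNA1 (AT1G07370) had 41.6, 45.4 and 44.4 CPM in heated Col-0 and 45.3, 44.3 and 50.1 CPM in HS::AXR3-1, the last being its highest library of all 21, and 36.4 to 46.7 CPM in unheated ones. CYCA3;2, an A-type cyclin of S phase, had 41, 47.5 and 31.5 CPM in heated Col-0 and 64.6, 42.9 and 23.3 CPM in HS::AXR3-1, which include both its highest and its lowest library. PCNA1 and PCNA2 are paralogs whose reads could be divided by the counting, and their sum was 94.4 ± 9.13 CPM in mock, 88.6 ± 4.33 CPM in heated Col-0 and 95.3 ± 1.58 CPM in HS::AXR3-1 (SD, n = 3 each). PCNA2 overlaps a gene on the opposite strand that averaged 59 CPM. Its level, and the sums and ratios that include it, are therefore uncertain.

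CYCA3;1 (AT5G43080), the other A3-type cyclin, lay below all 3 mock libraries in every other library of the series. It had 10.4, 9.63 and 10.5 CPM in mock, 8.79, 8.53 and 7.78 CPM after IAA, and 8.31, 6.7 and 7.7 CPM after PEO-IAA. Neither chemical group overlapped mock. The log2 changes were -0.28 ± 0.22 and -0.42 ± 0.22 (SE), and the edgeR adjusted p was 1 for both. CYCA3;1 was the only member lower without overlap in these comparisons, where 2.99% of all genes were lower without overlap after IAA and 2.68% after PEO-IAA. Both changes are set against the same mock libraries.

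D-type cyclins bind CDKA at the start of the cycle. Their sum with CDKA;1 was 260, 247 and 237 CPM in mock, 269, 250 and 229 CPM in estradiol-treated Col-0, 258, 294 and 234 CPM in XVE>>AXR3-1, 234, 244 and 202 CPM in heated Col-0 and 272, 244 and 204 CPM in HS::AXR3-1. All groups overlap at least 1 other. CDKA;1 stood between 54.7 and 73.1 CPM in all 21 libraries. CYCD3;1 (AT4G34160) had 12.9, 13.5 and 11.2 CPM in estradiol-treated Col-0 and 19.3, 20.6 and 16.4 CPM in XVE>>AXR3-1, without overlap, and CYCD5;1 (AT4G37630) had 15.7, 15.3 and 13.8 CPM against 17.8 to 24.5 CPM. The log2 changes were 0.59 ± 0.27 (edgeR adjusted p = 0.441) for CYCD3;1 and 0.48 ± 0.20 (edgeR adjusted p = 0.342) for CYCD5;1. With the replicate number as a block, CYCD5;1 was called higher at 0.47 ± 0.12 (edgeR adjusted p = 0.0267), while CYCD3;1 had an adjusted p of 0.0593. That fit called 4.18% of all genes higher. CYCD4;2 also had all XVE>>AXR3-1 libraries above all controls, at 2.61 to 2.99 CPM against 1.83 to 2.5 CPM. That makes 3 of the 10 tested D-type and CDKA genes, and 4 of the 42 tested members in all, beside 8.2% of all genes. None of the 4 was a mitotic or S-phase gene.

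In the HS::AXR3-1 line, CYCD3;1 had 17.8, 13.8 and 6.37 CPM, against 9.58, 13.6 and 7.39 CPM in heated Col-0, with overlap. CYCD5;1 had 19.1, 17.3 and 10.8 CPM against 11.8, 13.5 and 10.2 CPM, and its log2 change of 0.41 ± 0.20 had an edgeR adjusted p of 1. Without HS::AXR3-1 replicate 1, 2 or 3 the change of CYCD3;1 was -0.02, 0.24 and 0.63 and that of CYCD5;1 was 0.24, 0.34 and 0.62, none of them called. The difference between the lines' effects was not called for either gene, also without any single HS::AXR3-1 library. In heated Col-0 against mock, CYCD5;1 fell by 0.75 on the log2 scale (SE 0.20, edgeR adjusted p = 0.0313), from 24.2, 18 and 17.4 CPM to 11.8, 13.5 and 10.2 CPM. Against estradiol-treated Col-0, whose libraries are given above, its change was -0.33 ± 0.20 and was not called (edgeR adjusted p = 0.447). It was the only D-type gene called against mock, and the median of the role was -0.12. CYCD1;1 (AT1G70210) spread most in unheated libraries, from 4.7 to 26.3 CPM. In each chemical group replicate 1 was its lowest library, with 9.15 CPM in mock, 6.9 CPM after IAA and 4.7 CPM after PEO-IAA. CYCD6;1 (AT4G03270) stood at 0.448 to 2 CPM and overlaps a gene on the opposite strand that averaged 75.1 CPM, and CYCD3;1 overlaps a gene on its own strand that averaged 64.1 CPM, so both levels are uncertain.

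No KRP gene was called by edgeR within an experiment unless the replicate block was added. All 7 had a log2 change above 0 in XVE>>AXR3-1 against estradiol-treated Col-0, with a median of 0.11 and a range of 0.02 to 0.69. KRP5 had 13.5, 10 and 8.43 CPM in the controls and 17.7, 15.1 and 11.4 CPM in XVE>>AXR3-1. The groups overlap, but each XVE>>AXR3-1 library was above the control of the same number. Its log2 change was 0.47 ± 0.19 (edgeR adjusted p = 0.318), and 0.48 ± 0.12 with the replicate number as a block, where it was called higher (edgeR adjusted p = 0.0244). The block fit called 4.18% of all genes higher. KRP6 had 12.8, 10.5 and 13.3 CPM in controls and 17, 13.3 and 15.2 CPM in XVE>>AXR3-1. Its change of 0.31 ± 0.15 had an edgeR adjusted p of 0.48, and of 0.125 with the block.

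KRP4 had 29.6, 21.5 and 22.5 CPM in mock, 23.9, 22.5 and 18.7 CPM in estradiol-treated Col-0, 17.7, 13 and 15.5 CPM in heated Col-0 and 18.7, 14.6 and 20 CPM in HS::AXR3-1. The heated Col-0 libraries were below all libraries of both other Col-0 groups. KRP4 fell by 0.67 against mock on the log2 scale (SE 0.17, edgeR adjusted p = 0.0199). Against estradiol-treated Col-0 its change was -0.49 ± 0.17 (edgeR adjusted p = 0.142). KRP4 overlaps CB5-B on the opposite strand, which averaged 76.9 CPM. Of the remaining inhibitors, KRP6 had 11.5, 11.2 and 11.2 CPM in heated Col-0 and was called lower than mock by DESeq2 only (adjusted p = 0.04). KRP2 had 14.6, 13.1 and 13.3 CPM after IAA and 16.8 to 21.1 CPM after PEO-IAA, without overlap (log2 change -0.50 ± 0.23, edgeR adjusted p = 1). KRP2 and CYCD4;2 were the 2 of 42 members lower without overlap after IAA than after PEO-IAA, beside 4.14% of all genes. KRP1 varied from 1.31 to 5.21 CPM, KRP3 from 4.7 to 10.2 CPM and KRP7 from 3.81 to 7.05 CPM over all libraries.

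**Figure D5:**
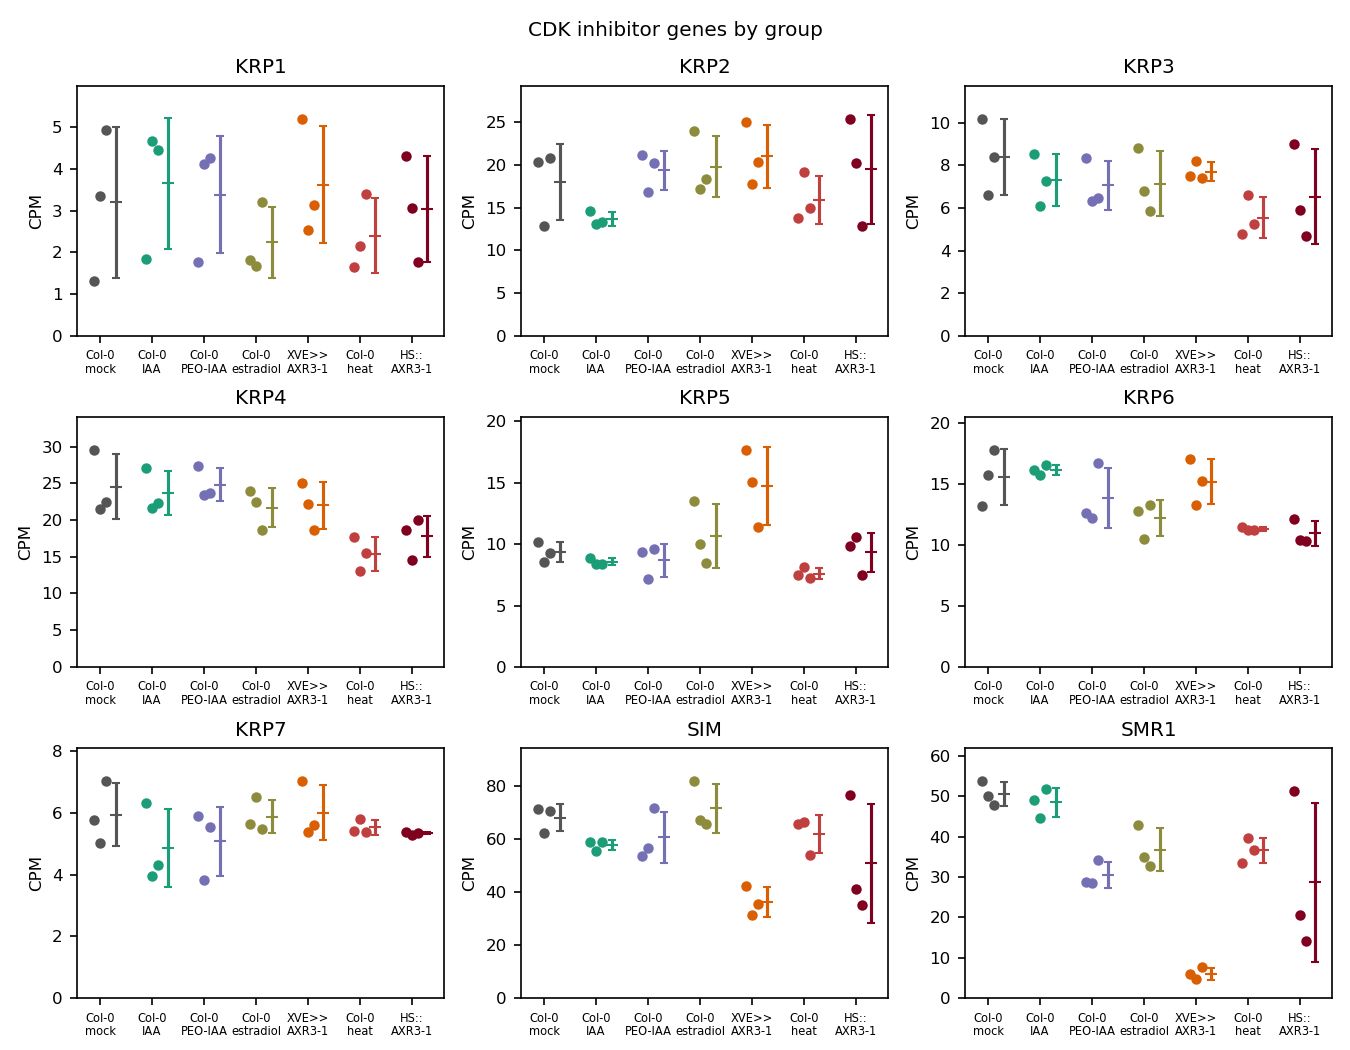
CPM of the 7 KRP genes and of SIM and SMR1 in each library (points, replicates 1 to 3 from left to right) with mean ± SD of 3 libraries (bars), linear axes from 0. SMR1 lies at 4.63 to 7.63 CPM in XVE>>AXR3-1 against 32.7 to 42.8 CPM in its control, and KRP4 at 13 to 17.7 CPM in heated Col-0 against 21.5 to 29.6 CPM in mock.

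Other genes of the pathway were taken from 8 lists with 73 genes, of which 71 were tested. None was called in the chemical comparisons, nor in HS::AXR3-1 against heated Col-0 with all libraries. In XVE>>AXR3-1, the SIAMESE-related inhibitors SMR1 (AT3G10525) and SIM (AT5G04470) fell, and edgeR without the block called no other gene of the 8 lists. That is 2 of the 71 tested, beside 2.81% of all genes. SMR1 had 42.8, 34.9 and 32.7 CPM in controls and 5.81, 4.63 and 7.63 CPM in XVE>>AXR3-1 (log2 change -2.61 ± 0.33, edgeR adjusted p = 0.000312). SIM, an inhibitor known for promoting endoreplication in trichomes, had 81.9, 67 and 65.4 CPM against 42, 31.1 and 35.4 CPM (log2 change -0.98 ± 0.22, edgeR adjusted p = 0.0169). The median of the 8 tested genes of that family was 0.39, and 5 of the 8 lay above 0. SMR8 (6.49, 6.73 and 6.69 CPM against 10.6, 11.5 and 9.83 CPM) and SMR4 (3.47, 2.08 and 2.9 CPM against 5.75, 6.77 and 4.09 CPM) were higher in every XVE>>AXR3-1 library than in every control. They were called with the replicate block (edgeR adjusted p = 0.0115 and 0.0293) and not without it (0.0924 and 0.19), while DESeq2 called SMR8 (adjusted p = 0.0339). The block fit called 4.18% of all genes higher. In the chemical experiment SMR1 had 53.9, 50.1 and 47.9 CPM in mock and 49.2, 44.7 and 51.7 CPM after IAA. After PEO-IAA it had 28.7, 28.5 and 34.1 CPM, below all mock libraries, and was not called. Of the 8 tested genes of the family, 1 was lower and 1 higher without overlap there, beside 2.68% and 2.37% of all genes. In HS::AXR3-1, SMR1 had 51.2, 20.6 and 14.2 CPM and SIM 76.4, 40.9 and 35 CPM, and both were highest in replicate 1, the library with the weak heat response and the lowest AXR3 level of the line. In heated Col-0 SMR1 had 33.4, 39.6 and 36.7 CPM. Its log2 change in HS::AXR3-1 was -0.35 ± 0.30 (edgeR adjusted p = 1). Without HS::AXR3-1 replicate 1 it was -1.08 ± 0.19 and called lower (edgeR adjusted p = 0.0369), and without replicate 2 or 3 it was -0.16 and -0.03 and not called. The change of SIM was -0.71 ± 0.16 without replicate 1 (edgeR adjusted p = 0.131). The HS::AXR3-1 effect on SMR1 minus the XVE>>AXR3-1 effect was 2.26 ± 0.44, with an adjusted p of 0.0942 by edgeR and of 0.000595 by DESeq2, so its call depends on the tool. Without HS::AXR3-1 replicate 1, 2 or 3 that difference was 1.53, 2.45 and 2.58, with edgeR adjusted p of 0.0645, 0.0644 and 0.0101.

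Beside these changes, all 6 root hair markers lay below 0 in XVE>>AXR3-1 and 5 were called lower. Among them RSL4 fell by 2.33 and RHD6 by 1.37 on the log2 scale (edgeR adjusted p = 0.00338 and 0.0052). Their summed level was 67.7, 135 and 238 CPM in XVE>>AXR3-1 and 298, 352 and 414 CPM in its control. Of 4 root cap markers BRN1 rose by 0.75 and BRN2 fell by 1.10, with edgeR adjusted p of 0.0309 and 0.00866. Of all genes, edgeR called 1.46% higher and 1.34% lower in that comparison. The part of such cell types in the SMR1 and SIM values was not tested.

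In heated Col-0 against mock, genes of the replication-dependent histone H3.1 and of the spindle were among those called lower. Of all genes, edgeR called 4.25% lower there. The sum of 5 H3.1 genes was 308, 418 and 320 CPM in heated Col-0, 540, 398 and 282 CPM in HS::AXR3-1 and 424 to 609 CPM in unheated libraries, so HS::AXR3-1 replicate 1 alone lay within the unheated range. Of the 5 H3.1 genes 3 were called lower by edgeR, with HTR3 at -1.01 ± 0.22 and HTR1 at -0.68 ± 0.16 on the log2 scale (edgeR adjusted p = 0.00907 and 0.0145), and HTR9 at -1.03. All 5 H3.1 genes were lower without overlap, beside 13.8% of all genes, and DESeq2 called 4 lower, beside 5.54%. Of 14 spindle and cytokinesis genes 2 were called lower by edgeR, EDE1, a microtubule-associated protein of the spindle, at -1.09 ± 0.24 and the kinesin gene HIK at -1.08 ± 0.29 (edgeR adjusted p = 0.00924 and 0.0316). All 14 lay below 0, with a median of -0.67. Of the 14, 11 were lower without overlap and DESeq2 called 5 lower. The spindle list summed to 181, 239 and 160 CPM in heated Col-0, 261, 259 and 125 CPM in HS::AXR3-1 and 245 to 329 CPM in unheated libraries. CCS52B, an activator of the anaphase-promoting complex, fell by 0.70 (edgeR adjusted p = 0.028), 1 of 6 genes of its list. None of 17 DNA replication genes, 9 genes of RBR1, E2F and DP or 4 tested MYB3R genes was called, with medians of -0.17, -0.18 and -0.18. Against estradiol-treated Col-0 edgeR called none of the H3.1, spindle or APC/C genes, with medians of -0.44, -0.42 and -0.29, and DESeq2 called 1, HTR3, lower (adjusted p = 0.0347).

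Of 8 genes of CDK-activating kinases and other CDK regulators, CDKD;1 and CYCH;1 rose in heated Col-0 against mock, while 4 of the 8 lay above 0 and 4 below, with a list median of 0.11. Of all genes, edgeR called 3.35% higher there. CDKD;1, a CDK-activating kinase, had 6.97, 6.22 and 7.04 CPM in mock, 7.78, 10.3 and 6.91 CPM in estradiol-treated Col-0, 14.8, 15 and 13.5 CPM in heated Col-0, and 10.8, 12.4 and 15 CPM in HS::AXR3-1. Every heated library was above every mock and estradiol-treated Col-0 library. CDKD;1 rose by 1.10 on the log2 scale against mock (SE 0.20, edgeR adjusted p = 0.00236) and by 0.80 against estradiol-treated Col-0 (SE 0.19, edgeR adjusted p = 0.0474). CYCH;1, the cyclin partner of CDK-activating kinases, rose by 0.57 against mock (SE 0.16, edgeR adjusted p = 0.041), from 18.4 to 20.9 CPM up to 27.4 to 31.3 CPM. Its change against estradiol-treated Col-0 was 0.43 ± 0.16 (edgeR adjusted p = 0.2). The lowest of the list was WEE1, a kinase that inhibits CDKs, at -0.52 ± 0.17 against mock (edgeR adjusted p = 0.066), which DESeq2 called lower (adjusted p = 0.0367).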

How the data were processed

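Root tip RNA was measured in 21 libraries, grouped by the genotype and treatment labels; replicate numbers come from the labels too, which call them biological replicates without naming separate cultures, so p-values measure the spread between these libraries. The authors deposited an expected count, a TPM value and an effective length for each transcript, estimated from the reads, per the file headers. Salmon 1.3.0 and TAIR10 are named in the submitters' processing notes. The sources used here do not give layout or strand option. Deposited TPM values were summed per locus and used for levels between genes. Deposited effective lengths enter those TPM values and were not otherwise used.

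The expected counts of 48268 transcripts were summed per locus and rounded. edgeR 4.0.16 (R 4.3.3) fitted all 21 libraries in 1 quasi-likelihood model by group, after TMM scaling and the low-count filter filterByExpr (19809 genes, residual degrees of freedom 14). Adjustment of p-values ran over all genes by the Benjamini-Hochberg method; called means an adjusted p under 0.05. CPM use TMM-scaled library sizes, and ratios to the mock mean have 0.1 CPM added. Depth limits genes near 1 CPM most. No library duplicated another of its group (mean chi-square per gene 20.93 to 129.2). Scaling, filter, DESeq2 1.42.0, a replicate block, fits of single experiments and leaving out each library were the alternatives; the script was tested on simulated data.

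Deviations of same-numbered libraries correlated at 0.523 to 0.784 in all 9 pairs of the chemical experiment and at 0.488 to 0.698 in the 3 pairs of the estradiol experiment, so the numbers were taken to pair samples there. The main fit by group did not use this pairing, and only the fit with the replicate block did. In the heat experiment such deviations did not correlate clearly for all 3 pairs.

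Named genes are, by rule, up to 5 called members per role and direction with the smallest p, the pair of highest mean TPM per role, all KRP genes and up to 2 called genes per list; further genes were chosen after their values were seen, namely CYCB1;1, CYCB1;2, CYCB1;3, CYCB1;4, CYCB2;1, CYCB2;3, CYCB2;4, CYCB3;1, CYCA1;1, CYCA2;1, CYCA2;4, CYCA3;1, PCNA1, CDC20.2, CDKB1;1, CDKB2;1, CYCD1;1, CYCD3;1, CYCD3;3, CYCD4;2, CYCD6;1, SMR4, SMR8, WEE1, HTR9 and CB5-B. Members and lists were chosen with earlier results of these data known. Sequence windows and overlaps come from RefSeq TAIR10.1; 99.6% of 48071 transcripts matched by name had the same length as in the files, and all 76 member transcripts did. Of the members, 12 overlap another gene. The result of 1 further marker gene is not reported here.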

Additional observations from a re-analysis of the deposited data

How the results depend on the processing

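For the cell cycle genes and comparisons with a call in any fit, no log2 change reversed under an alternative. Changes that were never called could differ in sign between fits. That of CYCD3;1 in HS::AXR3-1 was -0.02 without replicate 1 and 0.63 without replicate 3. The count of cell cycle genes called stayed at 0 in the chemical comparisons, in HS::AXR3-1 against heated Col-0, in the difference between the lines, and in estradiol-treated Col-0 against mock or heated Col-0. In XVE>>AXR3-1 it went from 0 to 2 with the replicate block. In heated Col-0 against mock it went from 4 to 8 with DESeq2 and to 1 (CYCB1;2) with both groups fitted alone, and from 0 to 7 when single libraries were left out.

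Counts over all genes moved as well. For heated against mock Col-0 they went from 1506 to 2174 with DESeq2 and to 1292 with both groups fitted alone. With DESeq2 they went from 33 to 116 for IAA against mock, 7 to 23 for PEO-IAA against mock, 125 to 238 for IAA against PEO-IAA, 5 to 35 for HS::AXR3-1, 556 to 872 for XVE>>AXR3-1, 5 to 55 for the difference between lines, 306 to 950 for heated against estradiol-treated Col-0 and 199 to 401 for estradiol-treated against mock Col-0. With the replicate block, in the same order, they were 133, 11, 341, 86, 1489 and 51 for the first 6. The heat experiment's numbers do not pair its libraries, so the 86 there rest on shared numbers only. Fitting the experiment alone gave 11 for IAA against mock and 0 for HS::AXR3-1, and fitting both groups alone gave 550 for heated against estradiol-treated Col-0. HS::AXR3-1 gave 1 with library totals and 2 without the low-count filter. The causes were not tested. Leaving out single libraries gave 6 to 16 for IAA against mock, 3 to 6 for PEO-IAA against mock, 50 to 104 for IAA against PEO-IAA, 0 to 20 for HS::AXR3-1, 268 to 528 for XVE>>AXR3-1, 0 to 36 for the difference between lines, 72 to 142 for heated against estradiol-treated Col-0, 720 to 998 for heated against mock Col-0 and 91 to 191 for estradiol-treated against mock Col-0. With 3 libraries a group, changes as small as those of most KRP genes may go undetected. The median log2 change of all genes stayed between -0.02 and 0.02 over the scalings.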
